A study of Mus musculus with 6 samples.

Results

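The Runx family loci are 3 stretches of the mouse genome around Runx1, Runx2 and Runx3, whose accessibility was followed in ATDC5, a mouse prechondrocyte cell line. The assay, ATAC-seq, uses the transposase Tn5 to insert sequencing adapters where DNA is accessible. Members were chosen by position alone, as peaks whose summit lies in a fixed GRCm39 window: chromosome 16 from 92300000 to 92900000 for Runx1, chromosome 17 from 44700000 to 45300000 for Runx2, and chromosome 4 from 134750000 to 135000000 for Runx3. The windows hold 3065 of the 1455940 peaks in the 6 deposited lists. Per the labels, undifferentiated control cells were taken at day 0 and differentiating cultures at day 3 and day 10, each with 2 biological replicates described as independent, which give the groups Day0, Day3 and Day10. Per the treatment protocol, cells for all 3 times were spotted as dense droplets and left for 24 hours to attach, and differentiation was by medium with added beta-glycerophosphate plus L-ascorbate-2-phosphate. Whether the Day0 cells had received that medium is not stated. The labels name no genetic change, and results from 1 cell line do not extend to other chondrocytes.

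Runx proteins are the DNA-binding subunits of core binding factor, a transcription factor whose other subunit is Cbfb, and they recognise the sequence TGTGGT, which reads ACCACA on the other strand. Runx2 is required for osteoblast differentiation and for the maturation of chondrocytes to hypertrophy in the growth plate, and Runx3 acts with it in chondrocyte maturation. Runx1 is best known for the formation of blood stem cells and is also expressed in skeletal precursors and early cartilage. Each gene is known to be read from a distal and a proximal promoter.

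One sequence feature links the family. The RefSeq promoter table, on GRCm38.p6, holds 2 starts for Runx1, 1 for Runx2 and 2 for Runx3. The longest run shared by a start of each gene, found by comparing them all, is 18 bases long and contains ACCACA in 2 copies that do not overlap. It is shown in capitals below, on the strand of the gene, because it is the longest stretch that these starts share.
Runx1, chromosome 16, minus strand: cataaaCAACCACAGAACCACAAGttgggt
Runx2, chromosome 17, minus strand: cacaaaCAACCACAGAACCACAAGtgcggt
Runx3, chromosome 4, plus strand: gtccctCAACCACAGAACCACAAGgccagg
Counted from the annotated start as base 1, the run covers bases 27 to 44 in Runx1 and 22 to 39 in Runx2, and in Runx3 it lies before the start, at bases -135 to -118. On either strand, it occurs in 4 of 32851 promoter sequences of 300 bases (0.0122%), those of Runx1, Runx2, Runx3 and the gene model Gm16225. The Runx genes are among these by construction, as the run was chosen for being shared by their starts. The shorter ACCACA, sought on both strands, occurs in 16.8% of them. The other starts of Runx1 and Runx3 hold neither and are richer in G and C, at 69.0% and 77.3%, against 45.0% and 63.7% for the starts with the run. These sequences are on another build than the peaks, so no listed peak was assigned to a promoter, and the positions of gene parts within the windows are not given. In gene order, the RefSeq table places Clic6 and Setd4 next to Runx1, Clic5 and Supt3 next to Runx2, and Syf2 and Clic4 next to Runx3.

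Each deposited list belongs to 1 library, and the lists are of unequal length, with 164642 and 164960 peaks (Day0), 177751 and 177111 (Day3) and 381376 and 390100 (Day10). Read totals were not used here. Peaks were therefore ranked within each library by the authors' -log10 p, with rank 1 the strongest. Peaks with equal values were ordered by chromosome and position, so tied Runx3 peaks, on chromosome 4, always rank ahead of tied Runx1 and Runx2 peaks. In Day3 replicate 2 the same fold over background, 6.673, ranked 101961 in the Runx3 window and 107354 in the Runx1 window. Windows reaching 250 bases to each side of the summits of the 50000 strongest peaks of every library gave 78698 regions over the genome, of which 158 lie at the Runx loci: 64 for Runx1, 54 for Runx2 and 40 for Runx3. Gained regions ranked 50000 or better in both libraries of the later day, and worse than 100000 or not at all in both of the earlier day. The reverse defined lost regions, and both the summits within the region and any overlapping peak had to satisfy the definition. Kept regions were overlapped by a peak at rank 50000 or better in all 4 libraries. With 2 libraries against 2 no p-value was computed for single regions, and the spread between the 2 libraries of a day may be technical. Peak names hold the word lysis in the Day3 lists and S2 in the Day10 lists alone. What these words mark is not stated, and any difference they stand for cannot be told apart from day. The authors' fold over background is given beside some ranks. Its highest value was 65.7 and 67.4 at Day10 and between 94.96 and 97.3 at the other days, so folds of strong peaks are not compared between days.

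The Runx3 window carried the most gained regions by Day10. There 10 of 40 regions were gained and 1 was lost against Day0, where over all regions 10.7% were gained and 7.99% lost. In the Runx2 window 8 of 54 regions were gained and 8 lost, and in the Runx1 window 6 of 64 were gained and 6 lost. As shares of their windows, gained regions made up 25% for Runx3, 14.8% for Runx2 and 9.38% for Runx1, and lost regions 2.5%, 14.8% and 9.38%. The shares for Runx1 lie near those of all regions. Kept regions numbered 14 for Runx3, 21 for Runx2 and 22 for Runx1, against 41.3% of all regions. The remaining 15, 17 and 30 regions met none of these definitions, against 39.9% of all regions. No test of the difference between the windows was made. With cutoffs at ranks 30000 and 60000, gained and lost regions numbered 5 and 0 of 25 for Runx3, 5 and 3 of 29 for Runx2, and 4 and 8 of 38 for Runx1, where 9.83% and 7.88% of all regions were gained and lost.

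**Figure D1:**
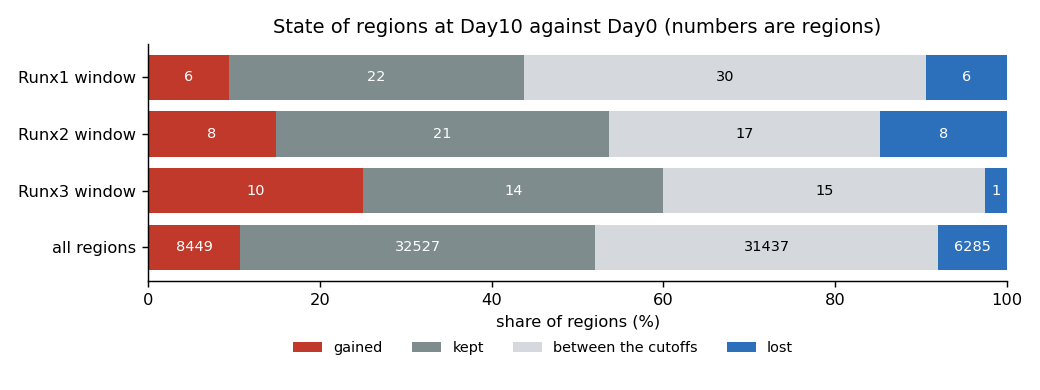
Share of regions in each state at Day10 against Day0, in % of the regions of each Runx window and of all 78698 regions, with the number of regions printed in the bars. Gained regions take 25% of the Runx3 window and 10.7% of all regions.

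Ratios of listed peaks at Day10 over Day0 followed the same order of windows. In the Runx3 window 292 and 299 peaks were listed at Day10, against 54 and 60 at Day0, a ratio of means of 5.18. For Runx2 the lists held 369 and 374 peaks at Day10 and 106 and 107 at Day0, a ratio of 3.49. For Runx1 they held 229 and 245 peaks at Day10 and 121 and 123 at Day0, a ratio of 1.94. Over chromosomes 1 to 19, X and Y the ratio was 2.34, so the Runx1 window lies below it and the others above. Most of the Runx3 peaks listed at Day10 were weak, as 81.5% and 80.6% of them ranked beyond 100000, against 73.7% and 74.3% of all peaks of those libraries.

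With equal numbers of the strongest peaks, the Runx3 window still held more at Day10. Of the 50000 strongest peaks of each library, 28 and 32 lay there at Day10, against 20 and 18 at Day0. They covered 32784 and 36209 bases at Day10 and 13437 and 12345 at Day0, 2.68 times as many, where over all chromosomes the ratio was 1.25. The median width of these peaks was 903 and 1038 bases at Day10, against 589 and 595.5 at Day0. It was also larger at Day10 in the other windows and over all chromosomes. For Runx2 it was 787 and 765 bases at Day10, against 582 and 488 at Day0, and for Runx1 707 and 642 at Day10, against 556 and 583 at Day0. Over all chromosomes it was 644 and 671 bases at Day10, against 546 and 552 at Day0. In the Runx1 and Runx2 windows the number of such peaks was no higher at Day10, with ratios of 0.925 and 0.853, and their covered bases changed by 1.08 and 1.22 times. At Day3 the whole lists covered 1.11 to 1.21 times the bases of Day0 in the 3 windows, and the 50000 strongest peaks 0.981 times for Runx1, 1.09 for Runx2 and 1.21 for Runx3. Over all chromosomes these ratios were 1.09 for whole lists and 1.1 for the 50000 strongest peaks.

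**Figure D2:**
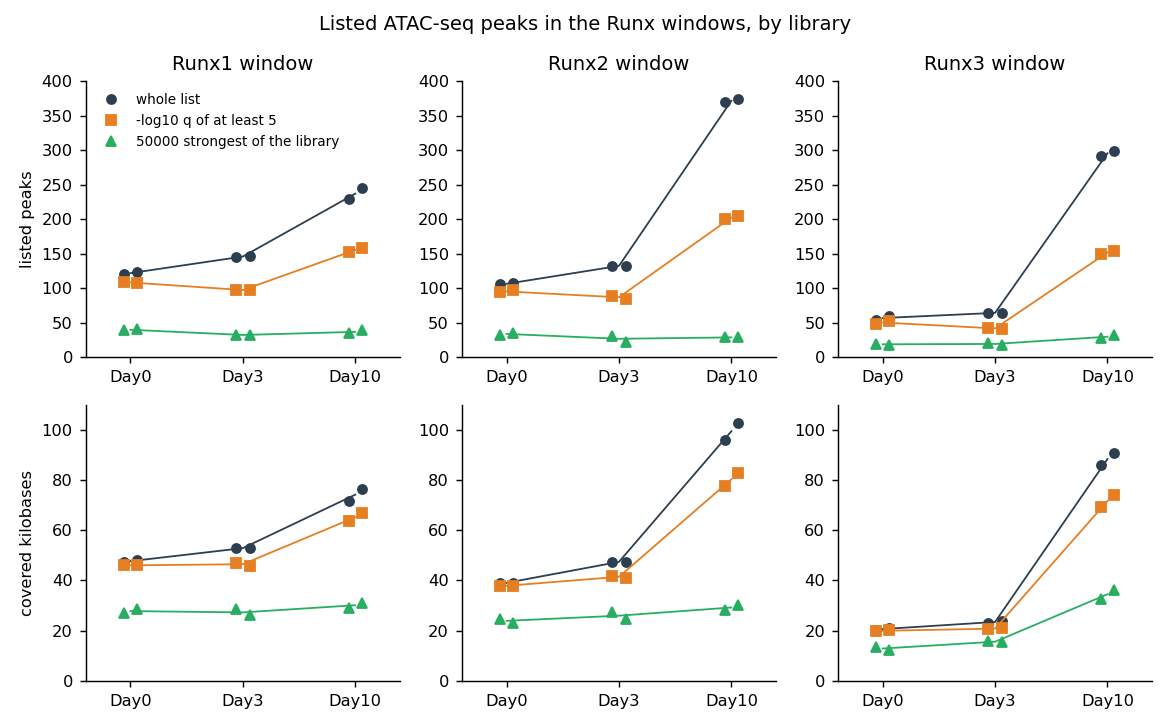
Number of listed peaks (upper panels) and bases they cover in kilobases (lower panels) in each Runx window, with each point 1 library and lines through the mean of the 2 libraries of a day. Whole lists, peaks with a -log10 q of at least 5, and the 50000 strongest peaks are drawn apart; the whole Runx3 list reaches 292 and 299 peaks at Day10.

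Runx3, the partner of Runx2 in chondrocyte maturation, held the gained region with the best Day10 ranks of the family. This region lies from 134825164 to 134825664 on chromosome 4. It ranked 159780 in Day0 replicate 1, had no peak in Day0 replicate 2, and reached ranks 74696 and 75436 (Day3) and 1127 and 2006 (Day10). Its authors' fold, not compared between days, was 43.2 and 42.3 at Day10 and 9.45 in both Day3 libraries. From the spacing of the folds, the Day10 summits stand for 89 and 90 overlapping reads, with exact Poisson 95% intervals of 71.5 to 110 and 72.4 to 111, and the Day3 summits for 16 each, with 9.15 to 26.0. These intervals cover counting error only, and reads are not scaled for depth: the background the folds imply was 1.085 and 1.151 reads at Day10, against 0.799 and 0.798 at Day3. This region was chosen by its Day10 ranks, and the definition of gained already sets those ranks apart from Day0. The distance between the days at this region is thus no further evidence.

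A second Runx3 region, from 134873861 to 134874361, ranked 149990 in Day0 replicate 1 and had no peak in Day0 replicate 2. It ranked 88405 and 84048 (Day3) and 3841 and 2605 (Day10). Another, from 134797085 to 134797585, ranked 115411 and 116113 (Day0), 71104 and 68502 (Day3) and 6902 and 9984 (Day10). In all 3 the Day3 libraries stand between those of the other days. The fourth, from 134906960 to 134907460, was not listed at Day0, ranked 136163 and 136456 (Day3) and 13033 and 13355 (Day10). Next in rank, the stretch from 134868994 to 134869494 was absent from the Day0 lists, ranked 110167 and 101961 (Day3) and 22835 and 17951 (Day10). The sixth, from 134753891 to 134754391, was listed in neither Day3 library, ranked 137684 in Day0 replicate 2 with no peak in Day0 replicate 1, and ranked 27256 and 31146 at Day10.

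Runx3 regions kept on both days mostly ranked better at Day10. Of its 14 kept regions, 11 ranked better in both Day10 libraries than in both Day0 libraries and 2 ranked worse, where 40.2% of all kept regions ranked better and 34.1% worse. Some neighbouring regions share a wide peak, and the 14 stand for 11 separate peaks in Day10 replicate 1. The strongest throughout, from 134822972 to 134823472, ranked 7220 and 7155 (Day0), 6659 and 6528 (Day3) and 1326 and 2300 (Day10). The region from 134847558 to 134848058, ranked 12939 and 17940 (Day0), 8078 and 5698 (Day3) and 918 and 1755 (Day10). The region from 134918875 to 134919375 ranked 3536 and 7644 (Day0), 4272 and 4874 (Day3) and 4265 and 4078 (Day10), and its days overlap. The fourth of this kind, from 134974460 to 134974960, ranked 4270 and 6681 (Day0), 7618 and 4875 (Day3) and 6903 and 7529 (Day10). Over all 40 Runx3 regions the median rank was 45450 and 48813 (Day0), 45572 and 46114 (Day3) and 19560 and 25558 (Day10). Over all regions of the genome it stayed between 36336 and 37754 in the 6 libraries.

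The only lost region of the Runx3 window lies from 134769844 to 134770344. It ranked 35001 and 34859 (Day0), 110164 and 101960 (Day3) and 152610 and 156389 (Day10). It was lost at Day3 against Day0 as well.

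Runx2, the regulator of osteoblast differentiation and chondrocyte hypertrophy, gained regions at both ends of its window. Of its 8 gained regions, 5 lie within 29.0 kilobases, with centres between 44744034 and 44772992 on chromosome 17. The other 3 lie within 13.4 kilobases, with centres between 45277094 and 45290466. The 504 kilobases between these groups, chosen as the longest stretch between neighbouring gained regions, held 6 of the 8 lost regions. As the stretch takes up 504 of the 600 kilobases of the window, this count does not set it apart. That stretch includes 151 kilobases, from 45125659 to 45277094, without the centre of any region, just before the second group.

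**Figure D3:**
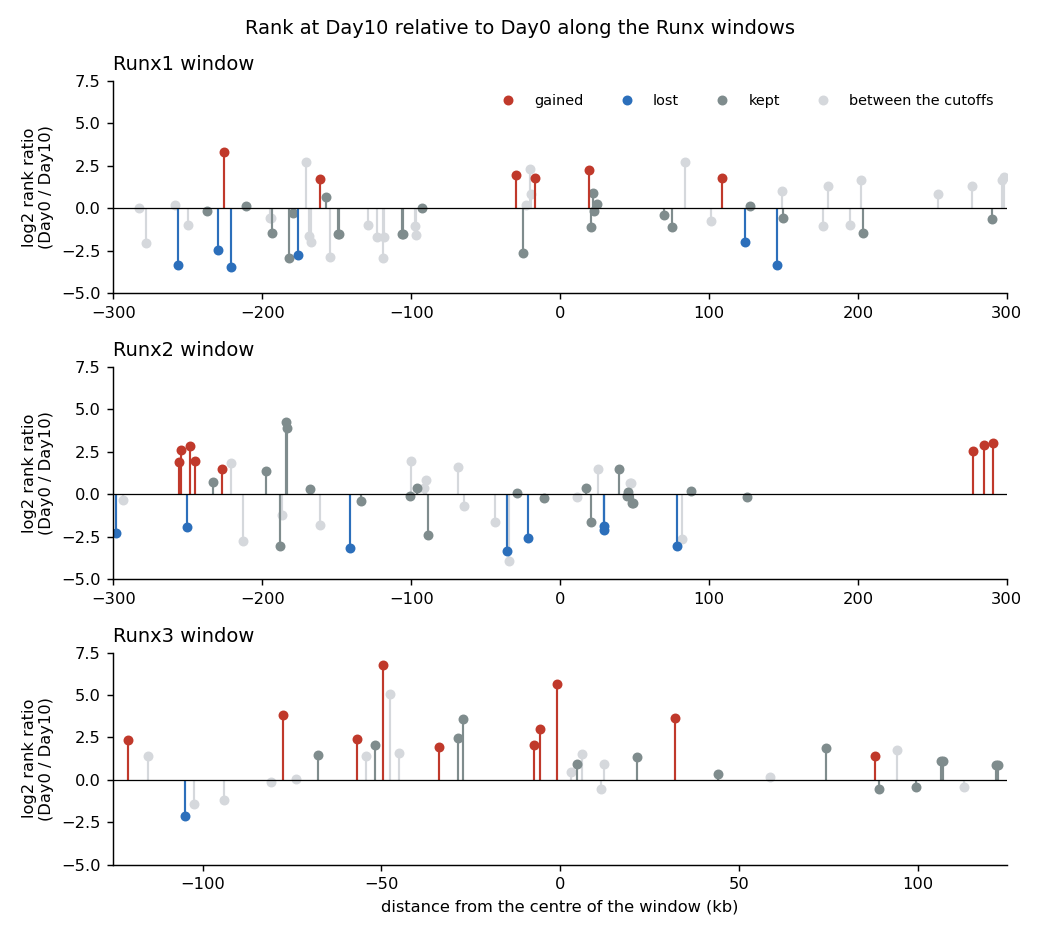
Log2 ratio of the mean rank at Day0 over that at Day10 (geometric mean of 2 libraries, a library without a peak set to 1 past the end of its list), against distance from the centre of each Runx window in kilobases. Each point is 1 region, positive values mean a better rank at Day10, and the 8 gained Runx2 regions stand in groups of 5 and 3 near the ends of the window.

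In the second group, the region from 45284337 to 45284837 had no listed peak at Day0 or Day3 and ranked 21445 and 22206 at Day10, where its summits stand for 56 and 58 overlapping reads. Its neighbour from 45276844 to 45277344 was likewise unlisted in the 4 earlier libraries and ranked 29255 and 27349 at Day10. The last, from 45290216 to 45290716, ranked 157481 in Day0 replicate 1 with no peak in Day0 replicate 2, then 98824 and 107602 (Day3) and 20492 and 19416 (Day10). In the first group, the region from 44751357 to 44751857 was unlisted at Day0, ranked 130909 and 148424 (Day3) and 20489 and 25202 (Day10). The one from 44744852 to 44745352 was also unlisted at Day0, and ranked 40830 and 52115 (Day3) and 29254 and 25201 (Day10). Close by, the region from 44754290 to 44754790 ranked 157473 and 146494 (Day0), 77292 and 61621 (Day3) and 37459 and 42066 (Day10). The best Day10 rank of a gained Runx2 region was 19416, and 4 of the 10 gained Runx3 regions ranked better than that in both Day10 libraries.

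Of the 8 lost Runx2 regions, 7 were intermediate at Day3, neither strong (rank 50000 or better) in both libraries nor beyond rank 100000 in both. The strongest lost one, from 44963939 to 44964439, ranked 18118 and 16293 (Day0), 30172 and 35499 (Day3) and 175878 and 180091 (Day10). It was the one lost region of the 3 windows that was strong in both Day3 libraries. From 44858739 to 44859239 the ranks were 31301 and 40669 (Day0), 81701 and 92863 (Day3) and 346247 and 306838 (Day10). A pair of neighbouring regions, from 45028870 to 45029370 and from 45029407 to 45029907, was lost together. The first of the pair ranked 35773 and 33387 (Day0), 69931 and 67391 (Day3) and 148624 and 152456 (Day10), and the second 42605 and 36765 (Day0), 58377 and 70523 (Day3) and 121695 and 180096 (Day10). From 44749396 to 44749896, between gained neighbours, the ranks were 31300 and 39284 (Day0), 73410 and 70520 (Day3) and 148618 and 124927 (Day10). At the edge of the window, the region from 44701125 to 44701625 ranked 38374 and 42037 (Day0), 49586 and 54172 (Day3) and 219816 and 180084 (Day10).

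The next 4 Runx2 regions were chosen as the strongest throughout, by their poorest rank over all 6 libraries, so strong ranks on every day are given. The region from 44811343 to 44811843 ranked 358 and 740 (Day0), 1260 and 1117 (Day3) and 3730 and 4825 (Day10). Its ranks of each day are separate from those of the others, with Day0 ranked best. From the folds, its summits stand for 101 and 99 (Day0), 89 and 91 (Day3) and 81 and 83 (Day10) overlapping reads. The exact Poisson 95% intervals of these counts overlap between days, and the reads are not scaled for depth. The region from 45048883 to 45049383 ranked 5280 and 7011 (Day0), 8959 and 6861 (Day3) and 10501 and 7353 (Day10). From 45087624 to 45088124 the ranks were 11459 and 11789 (Day0), 7449 and 7331 (Day3) and 11982 and 8523 (Day10). From 44988625 to 44989125 they were 9651 and 12375 (Day0), 6511 and 3099 (Day3) and 12759 and 12428 (Day10). Both of these ranked best at Day3, but the Poisson 95% intervals of their read counts overlap between days. Among the kept Runx2 regions, 1 chosen after its values were seen lies from 44815617 to 44816117. It ranked 28329 and 27281 (Day0), 10552 and 11599 (Day3) and 1730 and 1247 (Day10). Of 21 kept Runx2 regions, 7 ranked better in both Day10 libraries than in both Day0 libraries and 7 ranked worse. These shares of 33.3% each lie near those of all kept regions, of which 40.2% ranked better and 34.1% worse. The 21 stand for 18 separate peaks in Day10 replicate 1.

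Runx1, the family member of early skeletal precursors and blood, gained as many regions as it lost. The longest stretch between neighbouring lost regions, 300 kilobases between the centres 92423634 and 92723859, held 5 of the 6 gained regions. It holds no lost region by construction and takes up 300 of the 600 kilobases of the window. The share of all Runx1 regions inside it is not given. Of the 6 lost regions, 4 lie before it or at its start and 2 at its end or after it. The other gained region lies among those 4. Its 22 kept regions more often ranked worse than better at Day10: 13 ranked worse in both Day10 libraries than in both Day0 libraries and 4 ranked better, where 34.1% of all kept regions ranked worse and 40.2% better. The 22 stand for 20 separate peaks in Day10 replicate 1. The strongest region throughout, from 92417552 to 92418052 on chromosome 16, ranked 513 and 733 (Day0), 2682 and 2310 (Day3) and 4580 and 4813 (Day10). The region from 92450650 to 92451150 ranked 3412 and 3784 (Day0), 4533 and 4748 (Day3) and 11951 and 9108 (Day10). In both, the ranks of each day are separate from those of the others, but the Poisson 95% intervals of the read counts overlap between days. From 92406119 to 92406619 the ranks were 3113 and 1434 (Day0), 2949 and 4047 (Day3) and 4122 and 7900 (Day10). From 92420645 to 92421145 they were 8592 and 6989 (Day0), 3198 and 4386 (Day3) and 11203 and 7901 (Day10). There Day3 held the best ranks, again with Poisson 95% intervals that overlap between days.

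Among the gained Runx1 regions, 1 was gained by Day3. It lies from 92374181 to 92374681, ranked 157464 in Day0 replicate 2 with no peak in Day0 replicate 1, then 42407 and 39674 (Day3) and 14282 and 17653 (Day10). It is also the gained Runx1 region with the best rank at Day10. The next, from 92619303 to 92619803, was unlisted at Day0 and ranked 37789 and 50001 at Day3, just past the cutoff in replicate 2, and 34471 and 33272 at Day10. In Day3 replicate 2 the cutoff falls among peaks of equal fold, 15.01, so only the order of ties put this region past it. From 92582760 to 92583260 no peak was listed at Day0 or Day3, and the ranks at Day10 were 48035 and 47197. The remaining gained regions, with starts at 92708144, 92438132 and 92570400, ranked between 37426 and 47195 at Day10, close to the cutoff of 50000.

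The lost Runx1 regions were all intermediate at Day3. From 92745322 to 92745822 the ranks were 33457 and 30159 (Day0), 81581 and 70435 (Day3) and 344111 and 304714 (Day10). From 92343027 to 92343527 they were 23717 and 28212 (Day0), 51536 and 48081 (Day3) and 253018 and 259150 (Day10). From 92378657 to 92379157 they were 38340 and 30158 (Day0) and 63649 and 56414 (Day3), and of the Day10 libraries replicate 2 alone held a peak, at rank 352282. The other lost regions, with starts at 92370235, 92423384 and 92723609, ranked between 132536 and 198820 at Day10.

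**Figure D4:**
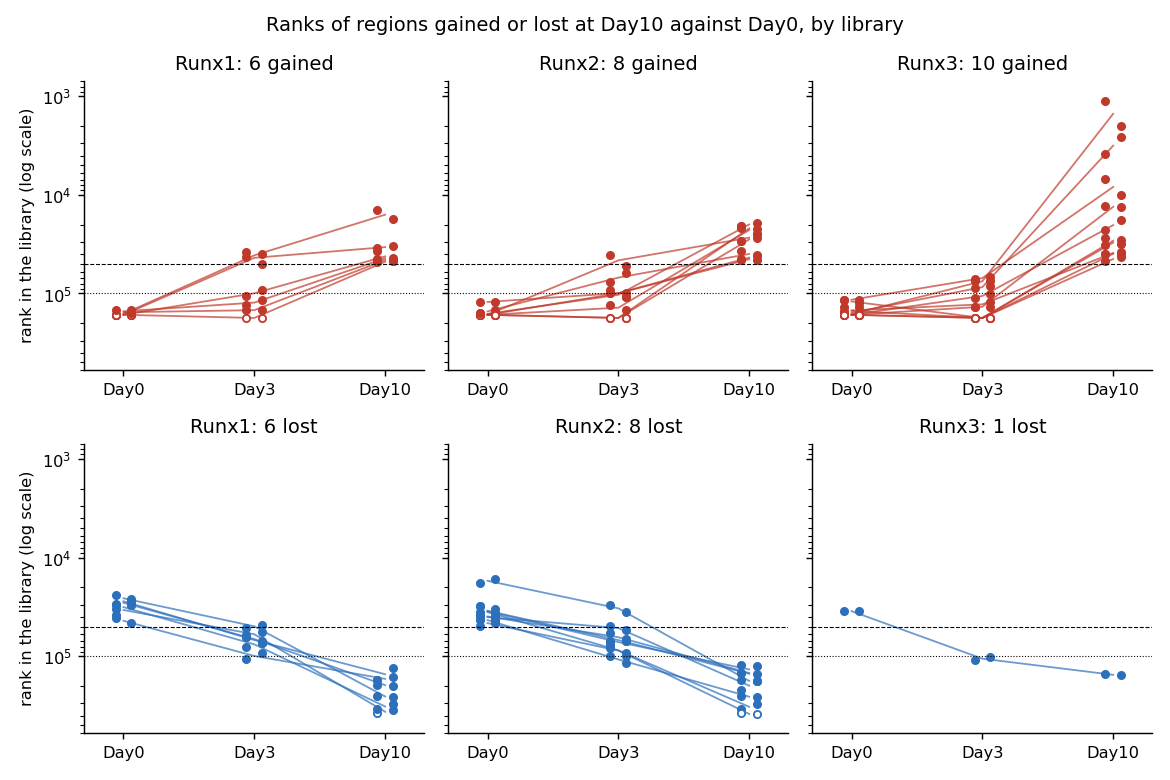
Rank of each region gained (upper panels) or lost (lower panels) at Day10 against Day0, on a log scale with the strongest at the top, for the 6 libraries. Lines join the geometric mean of the 2 libraries of a day, open circles mark libraries without a listed peak, drawn at the end of their list, and the dashed and dotted lines mark ranks 50000 and 100000; gained Runx3 regions reach ranks 1127 and 2006.

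Day3 was set against Day0 for the early step. Over the 3 windows 1 region was gained and 1 was lost, the Runx1 region starting at 92374181 and the Runx3 region starting at 134769844, and 68 were kept. Over all regions 0.543% were gained, 0.513% lost and 51.5% kept. The remaining 47.4% met none of these definitions, against 36 of 64 regions for Runx1, 29 of 54 for Runx2 and 23 of 40 for Runx3. In the Runx2 window no region was gained or lost. Its kept regions ranked better in both Day3 libraries than in both Day0 libraries in 14 of 25 cases and worse in 7, where 38.6% of all kept regions ranked better and 31.8% worse. For Runx1 3 of 27 ranked better and 15 worse, and for Runx3 7 of 16 ranked better and 5 worse. These kept regions stand for 24 separate peaks of Day3 replicate 1 for Runx2, 22 for Runx1 and 14 for Runx3.

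Day10 was set against Day3 for the late step. In the Runx3 window 7 regions were gained and none was lost, in the Runx1 window 4 were gained and 1 lost, and in the Runx2 window 3 were gained and 1 lost. Over all regions 7.72% were gained, 3.16% lost and 45.0% kept. The gained Runx3 regions include those starting at 134906960, 134868994 and 134753891. For Runx2 they are those starting at 45284337, 44751357 and 45276844. The first gained Runx1 region, from 92683782 to 92684282, ranked 87839 and 105614 (Day0), 106689 and 107354 (Day3) and 17676 and 11728 (Day10). The lost regions are the Runx2 region starting at 44963939 and a Runx1 region from 92349671 to 92350171. This Runx1 region ranked 54661 and 51638 (Day0), 45792 and 48082 (Day3) and 102740 and 105940 (Day10), just past the cutoffs. Its fold in Day10 replicate 1, 10.07, equals that at rank 100000, so its side of the cutoff there rests on the order of ties. Kept regions ranked better in both Day10 libraries than in both Day3 libraries in 14 of 17 cases for Runx3, 6 of 23 for Runx1 and 3 of 23 for Runx2, against 31.6% of all kept regions. They ranked worse in 1, 15 and 15 cases, against 41.3%. These kept regions stand for 13 separate peaks of Day10 replicate 1 for Runx3, 21 for Runx1 and 18 for Runx2, and 4 of the 15 Runx2 cases share 1 Day3 peak, the wide peak described with the Day3 rule. Day10 against Day0 and Day10 against Day3 share the Day10 libraries.

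Regions called at Day10 were also sorted by their state at Day3. Of the 24 regions gained by Day10 against Day0, 10 were intermediate on Day3, 13 lay outside the 100000 strongest peaks of both libraries and 1 was strong, where the shares over all gained regions were 30.2%, 66.3% and 3.48%. For Runx3 7 of 10 were out at Day3, for Runx1 3 of 6 and for Runx2 3 of 8. Of the 15 lost regions, 13 were intermediate at Day3, 1 was strong and 1 was out, where the shares over all lost regions were 61.6%, 32.9% and 5.58%.

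A rule added after the values were seen looked for regions stronger at Day3 than on both other days, with both Day3 ranks at 50000 or better and the best rank of the other 4 libraries at least 2 times as large. It called 5 of 54 Runx2 regions, 0 of 64 Runx1 regions and 0 of 40 Runx3 regions, where 0.902% of all regions were called. The mirrored rule called none of the 158 and 0.226% of all regions. Of the 5 Runx2 regions, 4 lie under a single wide peak in both Day3 libraries, so they stand for 2 places. The first place, from 44903434 to 44903934 on chromosome 17, ranked 23742 and 32264 (Day0), 3210 and 3743 (Day3) and 25725 and 17680 (Day10). The second starts at the region from 45044687 to 45045187, which ranked 30314 and 31181 (Day0), 7929 and 9856 (Day3) and 34525 and 30749 (Day10). The peak over it was the widest of the Runx2 window at Day3, at 3309 and 3354 bases, and at Day10 in replicate 2, at 3604 bases. What the word lysis in the Day3 peak names marks is not stated, and its part in these calls was not tested.

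The libraries were also compared by the bases that the 50000 strongest peaks cover in each window, with the Jaccard index, the shared bases over all bases covered by either library. Libraries of the same day averaged 0.823 for Runx1, 0.8 for Runx2 and 0.815 for Runx3. Between Day10 and Day0 the index averaged 0.409 for Runx1, 0.435 for Runx2 and 0.279 for Runx3, and between Day3 and Day0 it averaged 0.598, 0.626 and 0.653. Between Day10 and Day3 it averaged 0.499 for Runx1, 0.573 for Runx2 and 0.356 for Runx3. No index over all chromosomes is given. Unequal covered bases also limit the index, and for Runx3 they were 13437 and 12345 at Day0 and 32784 and 36209 at Day10. In each window the pairing of libraries by day had the highest mean of the 15 possible pairings, and the one-sided exact permutation p was 0.067 (adjusted over the 3 windows 0.067), the smallest that 15 pairings allow. Libraries of the same day were thus more alike than other pairings in all 3 windows, in a design that cannot reach 0.05.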

How the data were processed

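The authors deposited 1 narrowPeak list per library. Each peak comes with a -log10 p, a -log10 q, a fold ratio against background and a whole-number score, all deposited as the authors computed them. Per the submitters' processing notes, Trim Galore and the build mm10 are named. Alignment, peak calling and any shift for the Tn5 cut site are not given in the sources read. Scaffold names in the lists nevertheless belong to GRCm39, and positions are read as GRCm39 and counted from 1. No genome or annotation of that build was used, and coordinates were not converted. The Runx windows, lists and rules were chosen with earlier results of these data known.

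Peaks on chromosomes 1 to 19, X and Y were ranked by -log10 p, then fold, with equal peaks ordered by chromosome and start. Calls were made over all 78698 regions with Python 3.11.15, numpy 2.4.6 and pandas 2.3.3. The calling code was run on simulated lists of equal depth with other cutoffs, which does not test the calls made here. The regions described are, for each window, up to 6 gained and 6 lost at Day10 against Day0 and up to 3 of each in the other comparisons, best rank first, the 4 strongest throughout, and the widest peaks. Deposited folds are spaced evenly, by 0.465 to 0.583, which gives whole numbers of overlapping reads within 0.01 for 100% of peaks. Identical intervals made up at most 0.084% of a list between replicates. The narrowest peak was 68 and 72 bases at Day10 and 87 to 90 at the other days. Alternatives were the summit or the overlap rule alone, other cutoffs, wider regions, a fold rule (2 times the fold of every library of the other day), stricter lists, and leaving out each library.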

Additional observations from a re-analysis of the deposited data

How the results depend on the processing

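With the summit rule alone, gained and lost regions over the 3 windows numbered 6 and 2 at Day3 against Day0 (1.17% and 1.72% of all regions), Runx3 lost 3 at Day10 against Day0 (10.0%), and 4 were lost at Day10 against Day3 (4.59%). With ranks 30000 and 60000, which leave 92 regions, they numbered 0 and 3 at Day3 against Day0 (0.436% and 0.542%) with 40 kept (49.9%), 14 were gained at Day10 against Day0 (5 for Runx2 and 5 for Runx3, with 3 and 0 lost; 9.83% and 7.88% of all regions were gained and lost), and 0 were lost at Day10 against Day3 (2.9%). With no gap between the cutoffs, 6 were gained and 17 lost at Day3 against Day0 (7.99% and 7.65%), and 30 and 14 at Day10 against Day3 (15% and 14.1%). At Day10 against Day0, 31 were then lost in all, with 11 gained and 15 lost for Runx1, 13 lost for Runx2 and 3 for Runx3 (18.1% gained and 17.5% lost over all regions). Under the fold rule, 3 were gained and 12 lost at Day3 against Day0 (1.09% and 3.32%), and 27 and 1 at Day10 against Day3 (12.8% and 3.22%). At Day10 against Day0 it gave 24 lost, with 10 gained and 12 lost for Runx1 (14.7% and 11.8%). More regions were gained than lost in the Runx3 window at Day10 against Day0 under all of these and under the overlap rule, wider regions and every omitted library, while for Runx1 and Runx2 the balance varied.

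Ratios of listed peaks at Day10 over Day0 for peaks with a -log10 q of at least 5, the 50000 strongest and the 100000 strongest were 1.43, 0.925 and 1.01 for Runx1, 2.12, 0.853 and 1.1 for Runx2, and 3.01, 1.58 and 1.65 for Runx3. Ratios of covered bases were 1.42, 1.08 and 1.19 for Runx1, 2.12, 1.22 and 1.52 for Runx2, and 3.59, 2.68 and 2.67 for Runx3. At Day3 over Day0 the ratios of listed peaks were 0.899, 0.812 and 0.949 for Runx1, 0.911, 0.794 and 0.922 for Runx2, and 0.832, 1.03 and 0.882 for Runx3. Those of covered bases were 1.01, 0.981 and 1.04 for Runx1, 1.09, 1.09 and 1.1 for Runx2, and 1.04, 1.21 and 1.06 for Runx3. Fewer peaks enter these ratios by construction. Over all chromosomes, the Day10 over Day0 ratios at a -log10 q of at least 5 were 1.52 for listed peaks and 1.59 for covered bases. Covered bases of the 50000 and 100000 strongest gave 1.25 and 1.28. At Day3 over Day0, the ratios at that q were 0.897 for listed peaks and 1.03 for covered bases. Covered bases of the 50000 and 100000 strongest then gave 1.1 and 1.08.

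Leaving out each library in turn gave 1 to 3 gained and 1 to 2 lost at Day3 against Day0, and 3 to 5 lost at Day10 against Day3. The extremes of 3 gained and of 5 lost came without Day3 replicate 2. At Day10 against Day0 it gave 6 to 9 gained for Runx1, 9 without Day10 replicate 1, 8 to 10 for Runx2 and 10 to 11 for Runx3. The ratios for Runx2 at Day3 over Day0 were 1.24 to 1.25 for listed peaks and 1.21 to 1.22 for covered bases. The mean same-day Jaccard index was 0.852, 0.817 and 0.832 for Runx1, Runx2 and Runx3 with the 100000 strongest peaks and 0.806, 0.779 and 0.79 with whole lists, each with an exact permutation p of 0.067.

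No paired analysis was possible because the counts come from no test that takes a replicate block, and no label says that same-numbered libraries of different days share a culture. Read totals are unknown, and a region with no peak in the shorter Day0 and Day3 lists was not detected there at an unknown depth.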

Other observations

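The widest peak of the Runx3 window was not the same at Day10 and at Day0. At Day10 it ran from 134824541 to 134827939 in replicate 1 and from 134824582 to 134827791 in replicate 2, and held the strongest gained region. At Day0 it was 1450 and 1427 bases wide and lay from 134980980 to 134982429 in replicate 1. In the Runx1 window the widest peak in both Day10 libraries and in Day0 replicate 1 spanned the same stretch, from 92621222 to 92623781 in Day10 replicate 1 and from 92621198 to 92623127 in Day0 replicate 1.

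Listed peaks at Day10 were spread over the whole Runx3 window. In all 10 of its segments of 25 kilobases both Day10 libraries listed more peaks than both Day0 libraries, with 17 to 45 peaks per segment at Day10 and 0 to 12 at Day0. The same held in 23 of 24 segments for Runx2 and 22 of 24 for Runx1. The Day10 lists are 2.34 times as long over all chromosomes, and the part of list length in these counts was not tested. The share of such segments over all chromosomes is not given, so these counts do not set the windows apart from the genome.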
